A study of Drosophila melanogaster with 21 samples.

Results

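The odorant-binding proteins of Drosophila melanogaster were followed in the lower reproductive tract of females before and after mating. Members were the probe sets with a single annotated gene whose current symbol is lush or starts with Obp and a number. The arrays measured 36 such genes, each with 1 probe set, of the 52 genes of the family in the RefSeq annotation. The 16 genes without a member probe set, among them Obp22a, Obp51a, Obp56f, Obp56i and Obp83a, were not analysed here. Another 2 probe sets are annotated to several genes that include a family gene and were not named.

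Odorant-binding proteins are small secreted proteins with a hydrophobic pocket, held together by disulfide bonds between conserved cysteines. Support cells of olfactory and taste hairs release them into the fluid that bathes the sensory neurons, where they bind odorants and pheromones and affect how these reach the receptors. Members are also made outside the sense organs, and some are known from the male accessory glands, from which they pass to the female in seminal fluid. The female tract receives that fluid, stores sperm and carries its own secretory glands.

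RNA came from the upper uterus, the sperm-storage organs and the accessory glands of females 3 days old, held at 23 C in equal periods of light and dark. Each array took the pooled tracts of 12 to 40 females. Unmated females gave 5 arrays. Mated females dissected directly after mating ended (0 h) gave 6 arrays, those dissected 3 h later gave 4, and those dissected 6 h and 24 h later gave 3 arrays each. No strain is named in the labels, and unmated females were dissected at times between those of the mated ones. The p-values measure the spread between these pools, and nothing states which pools were independent matings. Less RNA per cell and fewer cells of a type cannot be told apart in such tissue.

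Medians of the arrays ranged from 35.6 to 57.7 on a linear intensity scale. Array numbers in the labels fall into 6 stretches with gaps between them, called number blocks here. The labels do not say what the numbers stand for, and no block held unmated arrays together with arrays of 0 h or 6 h. Arrays of a block were alike, with a consensus correlation of 0.31 within blocks. The main model takes arrays as independent, and its p-values leave this out. Among marker genes of the tract, Send1, a protease gene of the spermathecae, lay above the array median on all 21 arrays, and 5 of the 7 tract markers had a mean below it. Fat body markers were bright, with 10 of 11 above the array median on every array, and so were all 5 muscle markers and 4 of 6 hemocyte markers. All 6 neuron markers and all 14 markers of the male accessory gland and ejaculatory duct or bulb had a mean below the array median, and none was listed at 0.

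Few members of the family were bright in the tract. In all, 4 members lay above the array median on all 21 arrays and by at least 2 on the log2 scale on average: Obp99a, Obp99c, Obp18a and Obp56d. They are 11.1% of the 36 members, beside 17.8% of all 13966 probe sets that met the same criterion. Obp99a exceeded the array median by 7.63 on the log2 scale on average, and lay between the 98.5 and 99.9 percentiles of the arrays. Obp99c exceeded it by 7.54 on average, between the 98.8 and 99.7 percentiles. For Obp18a the mean excess was 5.27 and for Obp56d 4.09 on the log2 scale, with percentiles of 93.4 to 98.1 and 78.3 to 98.5.

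Just outside the criterion was Obp57c, a gene known from the taste organs, with a mean excess of 2.50 on the log2 scale. It lay above the median on 20 of 21 arrays and, on 0 h replicate 3, below it by a log2 value of -0.018. Next came Obp44a with a mean excess of 0.95, above the median on 18 arrays, then Obp99b with 0.86 on 15 arrays and Obp83ef with 0.49 on 17 arrays. The other 28 members had a mean below the array median. Of the 36 members, 16 (44.4%) lay below the median on every array, beside 23.6% of all probe sets.

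**Figure D1:**
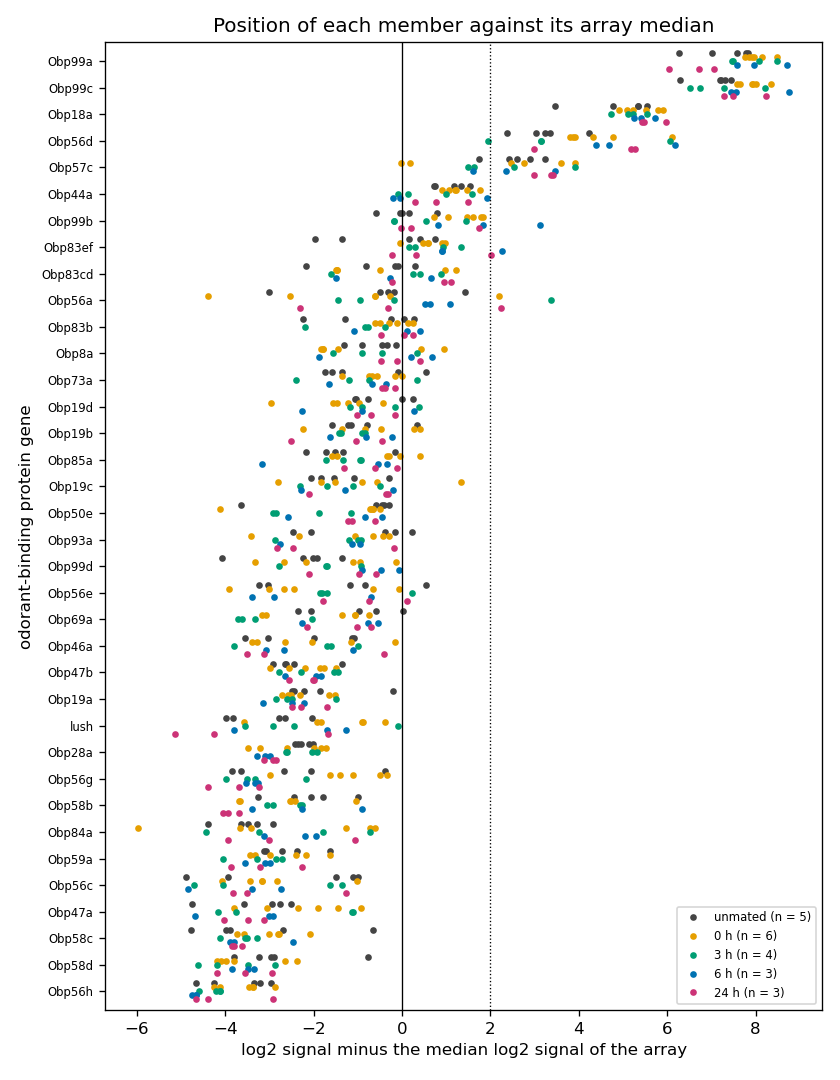
Log2 signal of each of the 36 members minus the median log2 signal of its array (horizontal axis), with 1 point per array coloured by group. The solid line marks the array median and the dotted line a log2 excess of 2; Obp99a, Obp99c, Obp18a and Obp56d lie to the right of the solid line on all 21 arrays, and 16 members lie to its left on all of them.

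No member passed the threshold, an adjusted p under 0.05 from limma, at any time after mating. In the comparisons with unmated females it was passed by 0% of all probe sets for 0 h, by 0.115% for 3 h, by 1.84% for 6 h and by 0% for 24 h, and by 0 members each time. At these shares, a count of 0 among 36 members is near the background. In the same order of times, the smallest adjusted p of a member was 0.586, 0.322, 0.0928 and 0.435. The members with an unadjusted p under 0.05 numbered 2, 2, 6 and 3, beside 7.43%, 7.64%, 17.7% and 7.85% of all probe sets.

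Between mated times, 0 members passed as well. The shares of all probe sets were 0.0644% for 3 h against 0 h, 0.451% for 6 h against 3 h and 0.0358% for 24 h against 6 h. In the comparisons added after seeing the data they were 0.179% for 6 h against 0 h, 0.0143% for 24 h against 0 h and 0.107% for 24 h against 3 h. The unadjusted p was under 0.05 for 2 to 4 members in each of these comparisons, and for 5.46% to 11.7% of all probe sets. The moderated F test of limma for any difference among the 5 groups called 0 members beside 0.344% of all probe sets, with 5 members and 11.8% of all probe sets at an unadjusted p under 0.05.

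For the 36 members, the median log2 changes from unmated females over the mated times in order were -0.02, -0.24, -0.32 and -0.16. Over all probe sets the medians were -0.10, -0.14, -0.21 and -0.10. A p that misses the threshold does not show that a level stayed the same, so the 95% intervals are given below for the members named.

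**Figure D2:**
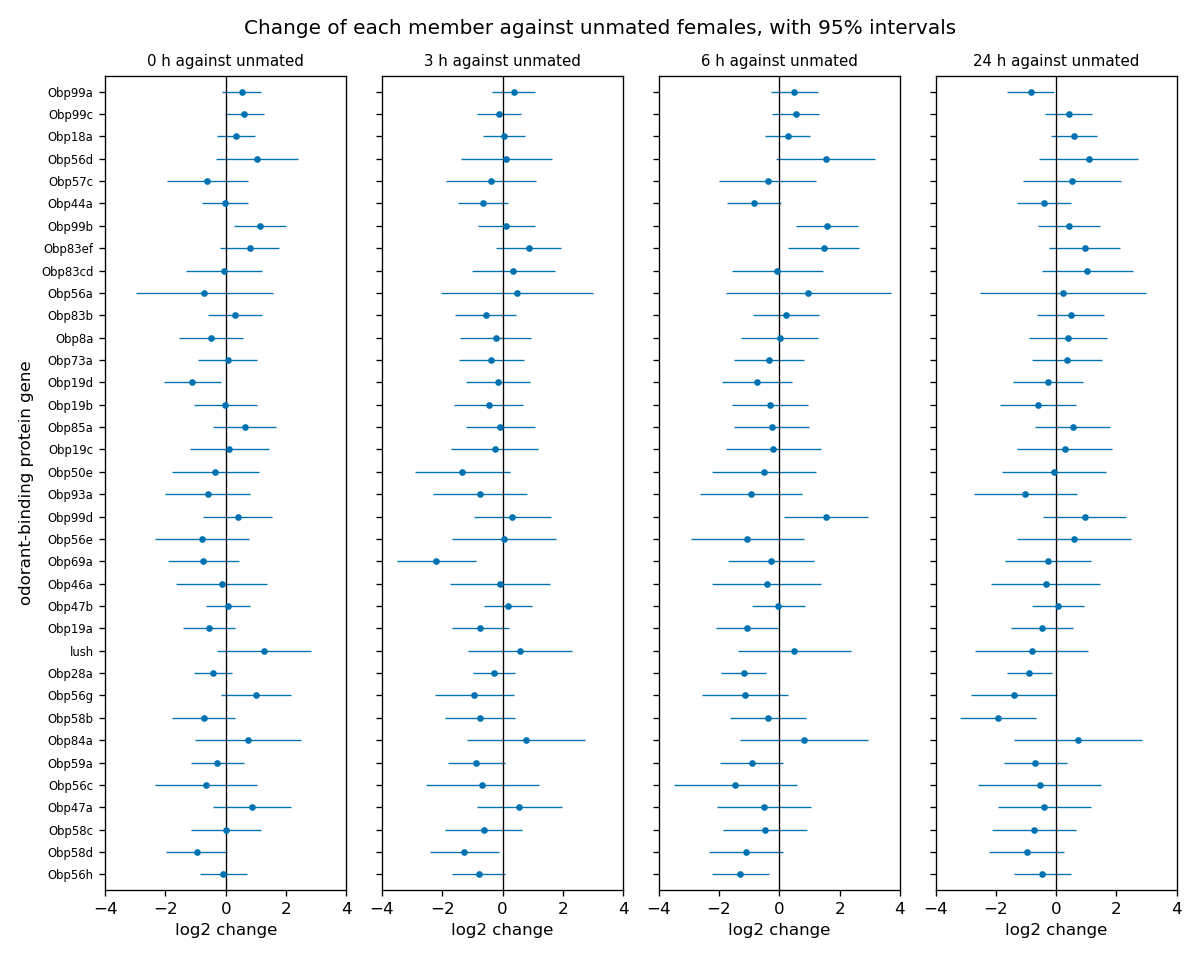
Log2 change of each of the 36 members against unmated females for each of the mated times (horizontal axes), with points for the estimate of the linear model and lines for its unadjusted 95% interval. Estimates run from -2.19 (Obp69a at 3 h) to 1.57 (Obp99b at 6 h), and no member passed the adjusted threshold at any of these times.

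Obp99a belongs to a subgroup of the family that lacks some of the conserved cysteines, and its transcript is known from the antenna. Its signal in unmated females was 11508, 4446, 9637, 7135 and 11872. At 0 h the lowest, median and highest signals were 9185, 11707 and 16603. At 3 h the signals were 7708, 12582, 16713 and 8557, and at 6 h 8783, 12682 and 14953. At 24 h the signal of Obp99a was 3178, 5186 and 6193. All 3 arrays of 24 h lay below every array of 0 h, 3 h and 6 h, and they overlapped the unmated arrays because unmated replicate 2 stood at 4446. So separated were 2.96% of all probe sets for 24 h against 0 h, 6.93% against 3 h and 9.27% against 6 h.

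The geometric mean signal of Obp99a was 8398 in unmated females. It was 12092, 10852 and 11854 over the first 3 mated times in order, and 4673 at 24 h. The log2 changes of these first 3 times from unmated females were 0.53, 0.37 and 0.50, with 95% intervals of -0.11 to 1.16, -0.34 to 1.08 and -0.27 to 1.27. At 24 h the change was -0.85 (SE 0.37, 95% interval -1.62 to -0.08, adjusted p = 0.606).

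Compared with the earlier mated times, Obp99a at 24 h differed by -1.37 on the log2 scale from 0 h (SE 0.36, adjusted p = 0.429), by -1.22 from 3 h (SE 0.39, adjusted p = 0.539) and by -1.34 from 6 h (SE 0.41, adjusted p = 0.475). These 3 differences share the 24 h arrays, and none passed the threshold in limma. With array weights, the difference from 0 h was -1.42 with an adjusted p of 0.0479, the single one of the settings run in which a member passed in any comparison; over all settings of this difference the adjusted p ran from 0.0479 to 0.975.

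Within number blocks, which hold 1 array of 24 h each, the 24 h array had the lower signal of Obp99a in each pair of groups that could be set side by side. In block 3 it differed by -1.53 on the log2 scale from the mean of the unmated arrays and by -1.43 from the 3 h array. In block 4 the differences were -0.76 from the 6 h array and -0.91 from the mean of the 0 h arrays, and in block 6 the difference from the 6 h array was -1.27. With the number block as a term of the model, the log2 change of Obp99a at 24 h against unmated females was -1.52 (adjusted p = 0.346).

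Among the 7 tract markers, Send1 had signals of 5405 to 7023 at 24 h and of 8368 to 23969 in unmated females. Send2, a second protease gene of the spermathecae, stood at 50.9 to 299 at 24 h and at 12.7 to 131 in unmated females. Before 24 h the mated arrays ran, in order of time, from 172 to 1007.5, 7446.5 to 13739 and 6797 to 10118 for Send2. For Send1 they ran from 7965.5 to 12277, 6745 to 14225 and 3940 to 8794. The median log2 change of the 7 was -0.03 at 24 h against unmated females, with 0 calls. For 24 h against 0 h there were 0 calls as well. Send2 was called lower at 24 h against 3 h and against 6 h, 14.3% of the list each time. The shares of all probe sets called were 0.107% and 0.0358%. Their summed signal, most of it from Send1 and Send2, was 5599 to 7173 at 24 h and 8583 to 24169 in unmated females. At the mated times before 24 h the ranges of the sum, in order, were 8987 to 12973, 14294 to 28039 and 10791 to 18963. The summed signal of the 11 fat body markers was 74056 to 87787 at 24 h, beside 81629 to 134410 in unmated females. In order, the mated times before 24 h gave 71183 to 127532, 47373 to 132244 and 66991 to 102191. The 5 muscle markers summed to 15817 to 19310 at 24 h and to 15064 to 36396 in unmated females, and before 24 h to 16158 to 24360, 9464 to 25199 and 15747 to 21416. What part these differences have in the signal of Obp99a was not tested.

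Obp99c, of the same cysteine-poor subgroup, had signals of 8830, 4530, 7374, 8170 and 8540 in unmated females. At 0 h its lowest, median and highest signals were 9770.2, 10305 and 15259, all above the unmated arrays. It was the single member whose groups did not overlap at 0 h, where 1.15% of all probe sets were so separated. At 3 h the signals of Obp99c were 3982, 4997, 13834 and 7328, at 6 h 8692, 8864 and 15488, and at 24 h 7450, 8911 and 13979. The high array of each of the later times stood apart from the others of its group, and these groups overlapped the unmated arrays.

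The log2 change of Obp99c against unmated females was 0.62 at 0 h (SE 0.31, 95% interval -0.03 to 1.27, adjusted p = 0.679). At the later times in order it was -0.12, 0.54 and 0.42, with adjusted p of 0.975, 0.477 and 0.833. The number block accounted for 80.2% of the variance of Obp99c over the 21 arrays and the mating group for 35.1%; the block and the group overlap. For 0 h no block holds an unmated array, and with the block as a term the change was -0.14.

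**Figure D3:**
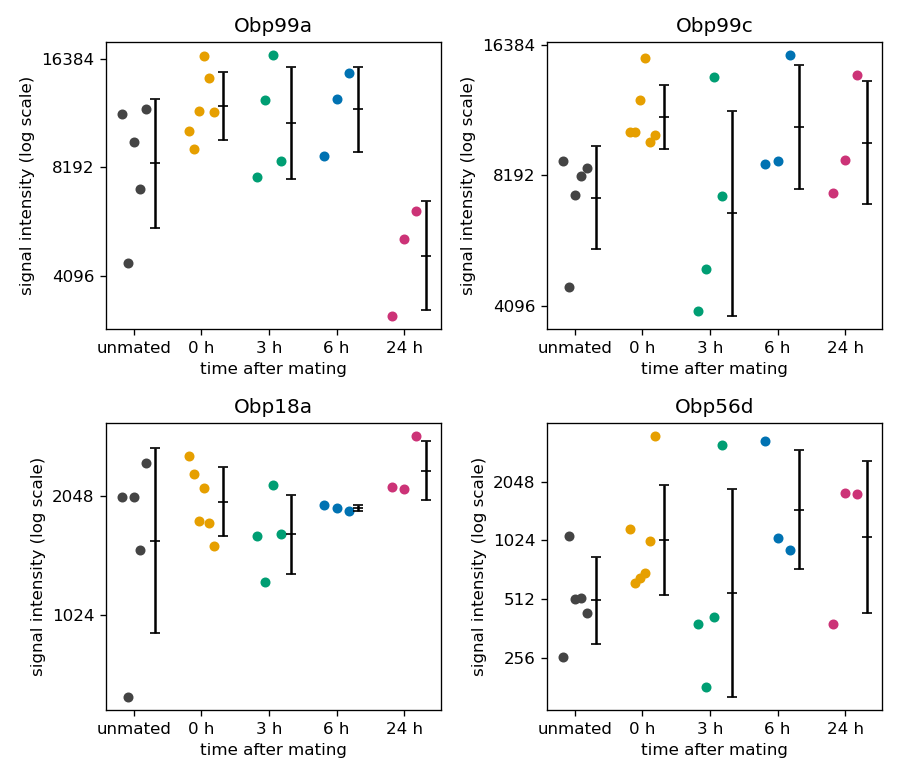
Signal intensity (log scale) of Obp99a, Obp99c, Obp18a and Obp56d by time after mating, with a point per array and, to its right, the geometric mean with a bar of 1 SD of the log2 values. For Obp99a the 3 arrays of 24 h, between 3178 and 6193, lie below all arrays of 0 h, 3 h and 6 h; for Obp56d single arrays of 0 h (3498), 3 h (3175) and 6 h (3306) stand far above the others of their groups.

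The difference between Obp99a and Obp99c on an array was lowest at 24 h. The log2 signal of Obp99a minus that of Obp99c on the same array was 0.20 ± 0.30 (SD, n = 5) without mating. Over the mated times it was 0.11 ± 0.26 (n = 6) for 0 h, 0.70 ± 0.54 (n = 4) for 3 h, 0.16 ± 0.31 (n = 3) for 6 h and -1.06 ± 0.24 (n = 3) for 24 h. The 3 arrays of 24 h, from -1.23 to -0.78, lay below all others, whose lowest value was -0.20. The size of such a difference depends on the probes, so that only its shift between groups can be read. The pair was chosen after the values were seen, so no test of this shift is given. The spread at 3 h came from the arrays of block 2, at 0.95 and 1.33, while the others stood at 0.22 and 0.27.

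**Figure D4:**
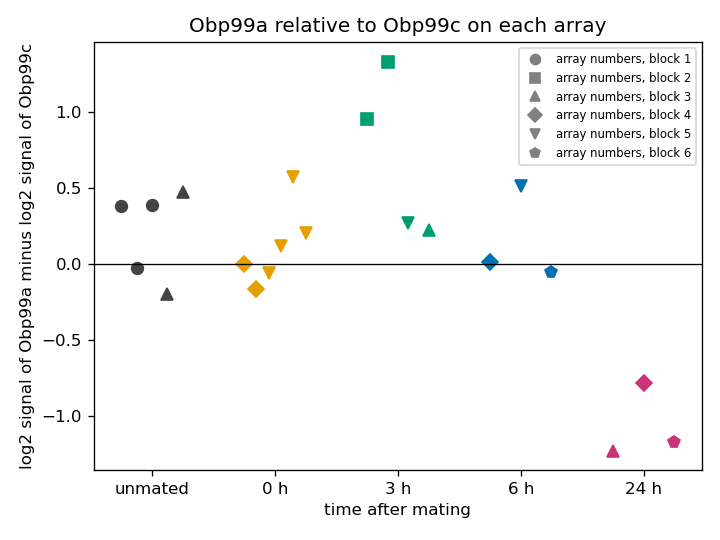
Log2 signal of Obp99a minus log2 signal of Obp99c on each of the 21 arrays by time after mating, with marker shapes for the 6 blocks of array numbers. The 24 h arrays, from 3 different blocks, lie between -1.23 and -0.78 and all others lie at -0.20 or above; the highest values, 0.95 and 1.33, are those of the 3 h arrays of block 2.

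Obp18a is a family member without a well-described role in the tract. Its signal in unmated females was 2041, 634, 2037, 1494 and 2483. At 0 h the lowest, median and highest signals were 1526, 1954 and 2586, and at 3 h the signals were 1619, 1243, 2181 and 1636. At 6 h Obp18a stood at 1941, 1909 and 1875, and at 24 h at 2156, 2138 and 2897. Apart from unmated replicate 2 at 634, all arrays lay between 1243 and 2897, and each mated group overlapped the unmated arrays.

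The log2 change of Obp18a against unmated females was 0.33, 0.05, 0.27 and 0.59 over the mated times in order, with adjusted p from 0.729 to 0.990. Without unmated replicate 2 the change at 24 h was 0.26. The SD of Obp18a over all arrays was larger than that of 45.0% of the 2491 probe sets well above the array median, whose median SD was 0.47 on the log2 scale.

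Obp56d, an odorant-binding protein known from the antenna and taste organs, was the most variable of the bright members. Its signal in unmated females was 260, 1085, 515, 519 and 436. At 0 h the lowest, median and highest signals were 619, 861 and 3498. The 3 h signals were 384, 182, 414 and 3175, at 6 h 3306, 1056 and 917, and at 24 h 381, 1798 and 1776. A single array stood far above the others at 0 h, at 3 h and at 6 h, and all groups overlapped the unmated arrays.

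The highest signal of Obp56d was 19.3 times the lowest, and its SD exceeded that of 99.2% of the probe sets well above the array median. For Obp99a, Obp99c and Obp18a the ranges were 5.26, 3.89 and 4.57 times. The log2 changes of Obp56d from unmated females were 1.03 at 0 h and 0.12 at 3 h, with 95% intervals of -0.33 to 2.39 and -1.39 to 1.63. They were 1.54 at 6 h and 1.08 at 24 h, with intervals of -0.10 to 3.19 and -0.57 to 2.72. None passed the threshold (adjusted p from 0.315 to 0.989). The change at 3 h rested on replicate 4: without it, the value was -0.72.

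In the RefSeq annotation Obp56d lies in a row of 6 neighbouring family genes from Obp56a to Obp56f, of which 4 were measured. Obp56a, Obp56c and Obp56e had means below the array median. Obp56a nonetheless reached 490 on 3 h replicate 4, 231 on 24 h replicate 2, 231 on 0 h replicate 6 and 154 on unmated replicate 2, and had a range of 245 times over all arrays. On these 4 arrays Obp56d had the highest signal of its group. On 6 h replicate 1, where Obp56d stood at 3306, Obp56a was at 65.9.

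Obp57c, just outside the criterion, had signals of 168, 427, 305, 513 and 287 in unmated females and a lowest, median and highest of 46.5, 314 and 648 at 0 h. At 3 h it stood at 253, 132, 143 and 717, at 6 h at 509, 154 and 181, and at 24 h at 498, 389 and 489. The 24 h arrays were close together and lay within the unmated range. Its log2 changes against unmated females lay between -0.62 and 0.52, none past the threshold.

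Obp99b, a further member of the cysteine-poor subgroup, is known for male-biased expression in the fat body of the head. Its signal in unmated females was 50.3, 55.6, 33.6, 60.8 and 93.3. At 0 h the lowest, median and highest signals were 78.0, 123 and 173. The 3 h signals were 38.2, 41.1, 126 and 68.9, at 6 h 81.1, 181 and 310, and at 24 h 47.2, 56.7 and 155. At 0 h and 6 h most arrays lay above the unmated range, and each group overlapped it through its lowest array.

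The log2 change of Obp99b was 1.15 at 0 h (SE 0.41, 95% interval 0.29 to 2.01, adjusted p = 0.586) and 1.57 at 6 h (SE 0.50, 95% interval 0.54 to 2.61, adjusted p = 0.103). It was 0.13 at 3 h and 0.42 at 24 h. The number block accounted for 77.7% of its variance and the mating group for 49.5%. With the block as a term the changes were 0.11 at 0 h and 0.16 at 6 h. No block holds unmated arrays with arrays of 0 h or 6 h, so that within-block values cannot be given for these comparisons.

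**Figure D5:**
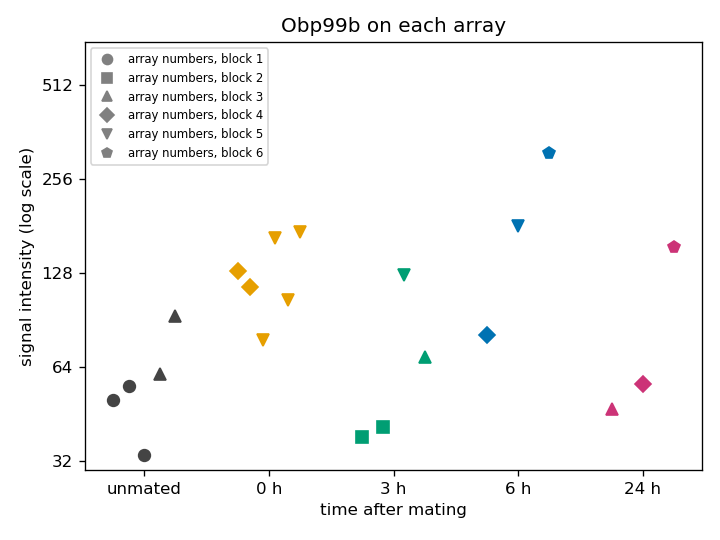
Signal intensity of Obp99b (log scale) on each of the 21 arrays by time after mating, with marker shapes for the 6 blocks of array numbers. Signals of 0 h run from 78.0 to 173 and those of unmated females from 33.6 to 93.3; the 2 arrays of block 6, at 155 and 310, are the highest of their groups, and the 3 h arrays of block 2 are the lowest of theirs.

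Obp99d, the other member of this subgroup named after the same chromosome band, lay below the array median on every array. Its signal was 3.0 to 22.6 in unmated females and 19.0 to 48 at 6 h, with a log2 change of 1.54 (adjusted p = 0.226). Obp44a, also of the subgroup, had signals of 89.3 to 158 in unmated females and of 39.6, 48.7 and 135 at 6 h, so that the groups overlapped.

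The list of odorant-binding proteins abundant in the antenna has 10 genes, of which 9 were measured. Obp56d and Obp99a lay above the array median on all arrays, and the other 7 had a mean below it. None of the 9 passed the threshold in any comparison. Their median log2 changes from unmated females over the mated times in order were 0.31, -0.28, 0.22 and -0.47.

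Obp28a, secreted around odorant neurons of the antenna, had signals of 11.8, 10.8, 10.3, 10.8 and 13.3 in unmated females. Its lowest, median and highest were 4.5, 10.1 and 14.2 at 0 h, and its signals at 3 h were 7.2, 12.3, 11.3 and 7.7. At 6 h it stood at 4.7, 5.9 and 4.5, and at 24 h at 6.4, 6.8 and 5.3. The arrays of 6 h and 24 h lay below all unmated arrays. The log2 change was -1.18 at 6 h (SE 0.36, adjusted p = 0.0928) and -0.89 at 24 h (SE 0.36, adjusted p = 0.585). All these signals lie below the array median, where the size of a change is uncertain.

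Obp69a, found in pheromone-sensing hairs of the antenna, had the lowest change of any member at 3 h. Its signal was 12.0, 58.2, 9.9, 27.9 and 35.7 in unmated females and 3.3, 4.7, 3.8 and 11.5 at 3 h. The groups overlapped, since 3 h replicate 4 lay above unmated replicate 3. The log2 change was -2.19 (SE 0.63, 95% interval -3.50 to -0.88, adjusted p = 0.322). The changes at the other times lay between -0.75 and -0.26.

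The lush gene, whose protein binds the male pheromone cis-vaccenyl acetate, lay below the array median on every array. Its signal was 3.2 to 13.4 in unmated females and 3.5 to 39.4 at 0 h, when its log2 change of 1.27 was the highest of any member (SE 0.74, adjusted p = 0.728). Obp84a, of the antenna, had signals of 2.4 to 7.1 in unmated females and 2.0 to 28.0 at 3 h, with a log2 change of 0.78 (adjusted p = 0.904) that was 0.17 without 3 h replicate 3 and 1.44 without 3 h replicate 1. Obp59a was the other antennal member whose 6 h arrays (4.3 to 5.4) lay below all unmated arrays (6.0 to 18.7), with an adjusted p of 0.343.

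Of 7 odorant-binding proteins known from seminal fluid, Obp8a, Obp56e and Obp56g were measured. All 3 had a mean below the array median, and none passed the threshold. Their summed signal was 41.1 to 135 in unmated females and 28.6 to 104 at 0 h, directly after mating. The members differed in direction. From unmated females to 0 h the geometric mean went from 34.5 to 24.7 for Obp8a and from 18.2 to 10.6 for Obp56e. For Obp56g it went from 9.26 to 18.6, and the arrays of the 2 groups overlapped for each member. Obp8a had signals of 22.2 to 49 in unmated females and 13.4 to 80.9 at 0 h, and the number block accounted for 82.2% of its variance. Markers of the male accessory gland and ejaculatory duct or bulb summed to 179 to 369 in unmated females and 95.5 to 289 at 0 h, so that the range after mating was not above the one before.

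Obp56g had the smallest p of the F test among the members. Its signal was 3.5, 44.1, 4.0, 13.1 and 8.4 in unmated females, with a lowest, median and highest of 6.5, 18.0 and 37.1 at 0 h. At 3 h it stood at 3.8, 4.7, 10.3 and 3.0, at 6 h at 4.0, 5.0 and 3.7, and at 24 h at 2.3, 5.2 and 3.6. The arrays of 6 h and 24 h lay below all arrays of 0 h, as was so for 1 side or the other in 5.47% and 2.96% of all probe sets. The unmated arrays overlapped each mated group. Against unmated females the log2 change of Obp56g at 24 h was -1.40, the next lowest of any member after Obp58b. Leaving out each array in turn, it ran from -1.75 to -0.84. The F test gave an adjusted p of 0.180. The log2 difference from 0 h was -1.94 at 3 h, -2.15 at 6 h and -2.41 at 24 h, with adjusted p of 0.538, 0.203 and 0.479.

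Of 8 members known from taste organs, Obp19b, Obp56h and Obp57c were measured, and none passed the threshold in any comparison. Obp56h lay at 2.0 to 7.4 in unmated females and at 1.7, 2.0 and 1.4 at 6 h. Its groups met at 2.0, far below the array median, and the log2 change was -1.30 (SE 0.45, adjusted p = 0.137). Obp56c had the lowest change at 6 h, -1.46, with an adjusted p of 0.458.

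Obp58b, Obp50e and Obp58d, which as background carry extra conserved cysteines, each had a mean below the array median. Obp58b had signals of 14.5, 13.9, 9.3, 5.7 and 26.7 in unmated females and of 2.9, 3.2 and 3.6 at 24 h, so that the groups did not overlap. The log2 change was -1.94 (SE 0.60, 95% interval -3.20 to -0.68, adjusted p = 0.435). Obp50e had the next lowest change at 3 h after Obp69a, -1.33 (adjusted p = 0.743), with signals of 4.6 to 44.5 in unmated females and 6.2 to 19.6 at 3 h. Obp58d was at -0.97 at 0 h (adjusted p = 0.680), and at -0.48 without unmated replicate 5. Of the neighbouring genes Obp59a, Obp58b, Obp58c and Obp58d, all 4 measured, each lay below the array median on every array.

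Obp83ef and Obp83cd encode proteins with a doubled binding domain and lie next to each other in the annotation. Obp83ef had signals of 85.1, 76.8, 55.7, 13.9 and 21.0 in unmated females and of 85.9, 95.1 and 170 at 6 h. Its 6 h arrays lay just above the highest unmated array, and the log2 change was 1.47 (SE 0.57, adjusted p = 0.174). The number block accounted for 68.9% of the variance of Obp83ef and the mating group for 30.6%. No block holds unmated arrays with arrays of 6 h, so block and mating cannot be told apart in this change of Obp83ef. At 3 h the change of Obp83ef, 0.87, was the highest of any member (adjusted p = 0.761), and 0.48 without unmated replicate 4. Obp83cd had a change of 1.04 at 24 h (adjusted p = 0.763), with signals of 11.2 to 70.6 in unmated females and 39.7 to 105 at 24 h, and a change of 0.62 without unmated replicate 1. The lowest change at 0 h was that of Obp19d, -1.10 on the log2 scale (adjusted p = 0.631).

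Counted over the family, groups that did not overlap the unmated arrays were found for 1, 0, 3 and 2 members over the mated times in order. At 3 h, 2.48% of all probe sets were so separated, at 6 h 11.0% and at 24 h 4.85%. At 6 h the members were Obp83ef, higher, and Obp28a and Obp59a, lower; at 24 h they were Obp28a and Obp58b, both lower. At 6 h and 24 h the members' shares lay near these backgrounds. Between mated times, 0 members were separated for 3 h against 0 h (1.98% of all probe sets), 1 for 6 h against 3 h (9.95%) and 3 for 24 h against 6 h (9.27%). There were 2 for 6 h against 0 h (5.47%), 2 for 24 h against 0 h (2.96%) and 5 for 24 h against 3 h (6.93%).

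At 6 h, some markers of other cells moved, and 1.84% of all probe sets passed the threshold against unmated females. Of the 6 neuron markers, elav, Syn and nSyb passed it as lower. The summed signal of that list was 35.5 to 52.1 at 6 h beside 102 to 130 in unmated females. At 6 h, elav, Syn and nSyb had signals of 0.9 to 6.2, far below the array median, where the size of a change is uncertain. Of the 6 oocyte markers, pgc and swa passed it as higher, and that list summed to 543 to 2236 at 6 h beside 306 to 389 in unmated females. The markers bcd, osk, gcl and grk did not pass. Signals of osk at 6 h lay above the unmated range (66.6 to 243, unmated 3.7 to 44.2). Those of bcd tended higher but overlapped (43.8 to 285, unmated 4.9 to 68.9). Signals also overlapped for gcl (110 to 376, unmated 104 to 170) and for grk, which tended lower (64.8 to 93.6, unmated 75.3 to 142). The hemocyte markers summed to 859 to 1353 at 6 h and to 1315 to 2644 in unmated females. Control transcripts gave a sign of RNA quality, the 3' over 5' signal ratio, whose log2 value was 2.82 ± 0.73 (SD, n = 3) at 6 h and 3.90 ± 2.01 (n = 5) in unmated females. The part of the marker shifts in the values of Obp28a, Obp59a, Obp99b and Obp83ef at 6 h was not tested. The 3' over 5' ratio was a covariate in an alternative fit. There, 0 members passed the threshold for 6 h against unmated females.

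The receptors that work with odorant-binding proteins in the sense organs were dim in the tract. Of 53 odorant receptor genes, 48 had a mean below the array median and 1 lay above it on every array. Orco, the co-receptor of the odorant receptors, lay below the median on all arrays, with signals of 6.3 to 27.5 in unmated females. Of 28 gustatory receptors 27 had a mean below the median, and of 43 ionotropic receptors 40. At 6 h, 2 odorant receptors fell against unmated females: Or85c by 2.52 on the log2 scale (adjusted p = 0.0455) and Or85d by 1.86 (adjusted p = 0.0308). They are 3.77% of the list, beside 1.84% of all probe sets called at 6 h. Or85c lay below the array median on all arrays and Or85d above it on 14 of 21, and below it the size of a change is uncertain. The gustatory and ionotropic receptors had 0 calls in any comparison.

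Other small carrier proteins, such as the Npc2, CheA and CheB families and the juvenile hormone binding proteins, formed a list of 33 measured genes, not all of them particular to sense organs. Of these, 12 lay above the array median on every array and 18 had a mean below it. One passed the threshold, Phk-3, a chemosensory protein that also carries small hydrophobic ligands. Its signal was 109 to 270 in unmated females and 480 to 987 at 6 h, a log2 rise of 1.99 (SE 0.35, adjusted p = 0.00638). It also rose at 6 h against 3 h by 1.74 (adjusted p = 0.0442) and against 0 h by 2.15 (adjusted p = 0.00734). In each of these comparisons Phk-3 made up 3.03% of the list. The shares of all probe sets called at 6 h were 1.84% against unmated females, 0.451% against 3 h and 0.179% against 0 h.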

How the data were processed

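The deposited values are the authors' linear intensity of each probe set on 21 single-colour arrays. The submitters' processing notes name RMA, but the values are not on a log scale, and the sources used here do not give how the authors summarised probes. Of 14010 probe sets, 44 controls were left out and 13966 tested; 12442 have 1 gene symbol, 327 several and 1197 none, and 12393 symbols were updated through gene identifiers with RefSeq (Release 6 plus ISO1 MT). No 2 arrays of a group shared more than 0.508% of values.

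A linear model of log2 signal, with no pseudocount or further scaling, had 1 mean for every group and used all arrays (limma 3.58.1 in R 4.3.3, moderated 2-sided tests, Benjamini-Hochberg adjustment over all probe sets, threshold 0.05). It was run on simulated data with known changes and independent noise. Those data held no number blocks, so the run does not bear on their effect. The number of arrays limits precision. Named were members well above the array median, any past the threshold, and the 2 highest and 2 lowest changes at each mated time. Obp57c, Obp28a, Obp56a, Obp59a, Obp8a, Obp99d and Obp44a were added after their values were seen. The members and 14 gene lists were chosen with earlier results of these data known. Cysteine classes are background and were not computed, since no protein sequence was used here. Alternatives were other scalings, filters, variance models, number blocks, the 3' over 5' ratio as a covariate and leaving out arrays.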

Additional observations from a re-analysis of the deposited data

Results flagged for a closer look

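For the members chosen by the naming rule, the highest and lowest arrays were set against the others of their group in unmated females, at 0 h and at 3 h. Of 51 such groups, 4 held an array far from the rest; chance alone flags about 5% of groups.

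Obp56d on 0 h replicate 6 had a signal of 3498, with the other 0 h arrays between 619 and 1179. Obp99c on unmated replicate 2 had a signal of 4530, with the other unmated arrays between 7374 and 8830. Obp50e, a dim member, stood at 4.6 on unmated replicate 2, with the others between 33.4 and 44.5. At 0 h it stood at 2.4 on replicate 2, with the others between 25.8 and 36.3.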

How the results depend on the processing

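Over 225 settings of the counts of members past the threshold, 224 gave 0 as reported. The exception was the difference of 24 h from 0 h with array weights, where the count was 1 (Obp99a, log2 difference -1.42, adjusted p = 0.0479). Of 33 changes of named members, 11 turned their direction in 1 or more settings, and none of these had passed the threshold; the cause was not tested. With the number block as a fixed term, the changes at 0 h were -0.19 for Obp18a, -0.45 for Obp99a and -0.14 for Obp99c. At 3 h they were -0.10 for Obp18a and -0.12 for Obp99a, and at 6 h -0.33 for Obp18a, -0.51 for Obp99a and -0.40 for Obp99c. At 24 h the change of Obp99c was -0.31. At 3 h, Obp18a was at -0.0052 with quantile normalization and -0.22 with array weights, Obp56d at -0.17 with array weights, and Obp99c at 0.092 with median centring. Leaving out each array in turn, the changes at 3 h ran from -0.28 to 0.22 for Obp18a, from -0.72 to 0.66 for Obp56d and from -0.47 to 0.13 for Obp99c, and at 6 h from -0.054 to 0.44 for Obp18a. In all, leaving out 1 array moved 20 of the 33 changes by over 1.5 times, and none of these had passed the threshold. Members well above the array median numbered 4 with quantile normalization or a margin of 1, and 5, with Obp57c, without 0 h replicate 3. Without the dimmer probe sets, 8 members remained in the fit. No paired analysis was possible because the groups compared share at most 1 replicate number in the labels; array numbers enter only through the number block. Signals below the array median limit what can be read for most members.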
